A study of Homo sapiens with 3 samples.

Results

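The 6 messenger RNAs described here are mitochondrially encoded: COX1, COX2 and COX3 (MT-CO1, MT-CO2 and MT-CO3), ATP6 and ATP8 (MT-ATP6 and MT-ATP8), and CYTB (MT-CYB). Their peaks came from a study of G-quadruplex RNA and the proteins bound to it, which mapped the RNA crosslinked to HNRNPA0, a member of the hnRNP A/B proteins that bind RNA. All peaks on the mitochondrial genome that the lists assigned to the Ensembl gene IDs of these genes were used, which gave 59 of 48938 peaks over 3 lists. Replicates 1, 2 and 3 contributed 21, 19 and 19 peaks.

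The 3 samples were replicates of 1 group. HEK293T cells, a human embryonic kidney line labelled WT, received 750 ng of a vector expressing HNRNPA0 with an HA tag (15 cm plate), were irradiated the next day at 254 nm with 0.3 J/cm2, and went through easyCLIP, in which protein is precipitated with its crosslinked RNA. The protein measured was therefore the tagged one made from the vector, in cells that keep their own HNRNPA0 gene. The labels do not say whether the replicates came from separate cultures, so the spread between them may be technical. No library without crosslinking, without the tag or of input RNA was used here, so the values do not separate RNA bound by HNRNPA0 from RNA recovered without it, nor binding from abundance.

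Mitochondria carry a small genome of 37 genes, of which 13 encode proteins, and all 13 proteins are subunits of the respiratory chain or of ATP synthase. COX1, COX2 and COX3 form the core of cytochrome c oxidase (complex IV), CYTB is the cytochrome b subunit of complex III, and ATP6 and ATP8 belong to the membrane part of ATP synthase (complex V). The genome is transcribed on both strands into long precursors that are cut largely at transfer RNAs, and the messenger RNAs are translated inside the organelle with few or no untranslated bases. ATP8 and ATP6 share one transcript, on which their reading frames overlap. Messenger RNAs are counted here by coding gene, so ATP8 and ATP6 are counted apart.

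A peak is a stretch that the authors' peak caller reported in one list, and its read number is the whole number that closes its name, taken as the reads in the peak. The deposited lines do not name that number. Over the 3 lists the 6 messenger RNAs had summed read numbers of 3674, 3728 and 3953, which was 1.37%, 1.39% and 1.79% of all read numbers in peaks (mean 1.52% ± 0.237, SD, n = 3). The total in peaks was 268608, 268445 and 221013, of which mitochondrial ribosomal RNA took 54.9% on average, with its highest share of 60.2% in replicate 2 and its lowest of 44.5% in replicate 3. The lower ribosomal share of replicate 3 stood beside its higher messenger RNA share, and the part of one in the other was not tested. Set against nuclear-encoded read numbers alone, the 6 messenger RNAs came to 3.67%, 3.76% and 3.46%, and replicate 3 was then the lowest.

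The peaks of these messenger RNAs were high and recurred at the same places. Their lowest read number was 59, a level reached by 1.09%, 1.08% and 1.07% of the peaks of replicates 1, 2 and 3, and their median was 165, 186 and 184 against a median of 4 over each whole list. Most mitochondrial peaks, those of these genes included, reached 59: 53 of 60, 56 of 60 and 57 of 64 in replicates 1, 2 and 3. Such height was therefore not particular to these genes. Merging peaks that overlapped by 1 bp or more on one strand gave 14 regions in the 6 genes, and 12 of them held a peak of all 3 replicates. Over all merged regions of the lists, 6.23% did so, and over the other regions of the mitochondrial genome, 67.6%. Of nuclear peaks whose read number reached 59, 91.5% fell in a region shared by all 3 replicates, and of the 59 peaks described here 56 did (94.9%), so their recurrence was near that of other peaks as high. Every one of the 6 genes held at least 1 region in all 3 replicates, against 22.2% of all gene IDs in the lists. Taking replicates in pairs, 96.7% of the peaks in one list met a peak of the other on average, and 90.5% in the pair with the least, against an average of 26.0% for all peaks. No peak of these genes had the same start and end in any pair of lists. Such identity was rare throughout: 18 intervals were identical between replicates 1 and 2, and 16 in each other pair, in lists of 15486 or more peaks. Its absence here is therefore not particular to these genes.

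All 59 peaks lay on the plus strand, from which the 6 genes are read. The lists held 10 minus-strand peaks on the mitochondrial genome, and none of them had its centre in these genes. No gene ID had peaks on both strands, so RNA antisense to these genes could not have been listed under their IDs.

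COX1, the catalytic subunit of cytochrome c oxidase, held the most peaks. It lies on chrM from 5904 to 7445 (hg38) and spans 1542 nt. Replicates 1, 2 and 3 had 9, 7 and 7 peaks, with summed read numbers of 1939, 1717 and 1957, or 49.4% ± 3.36 of the total of the 6 messenger RNAs (SD, n = 3). By these sums replicate 2 was the lowest, and replicates 1 and 3 were close to each other. Many of its peaks touch and may hold the same reads. With a run of touching peaks counted only at its highest peak, COX1 had 927, 1007 and 985, or 40.3% ± 2.75 of the total.

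Its widest region, from 6190 to 6599, covered 410 nt in the 5' part of the gene. The highest peak there had read numbers of 309, 483 and 558 in replicates 1, 2 and 3. The region was cut into 4 touching peaks in each list, but at different places, and the highest one was 100 nt wide in replicate 1 and 190 and 193 nt wide in replicates 2 and 3. Touching peaks of the region had equal read numbers in places, such as 275 and 275 in replicate 3. The smallest p-value that the authors' peak caller gave to any of the 59 peaks, 2.62e-102, belonged to one of these equal peaks and not to the highest one, whose p-value was 2.08e-95.

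The other shared regions of COX1 lay further 3'. That from 6916 to 6972 was the shortest of the 12, at 57 nt, with read numbers of 119, 133 and 141. That from 7140 to 7307 had highest read numbers of 271, 282 and 286 and ended 138 nt before the end of the gene. The highest peak of both regions was lowest in replicate 1 and highest in replicate 3. Summed over the touching peaks, however, the region from 7140 to 7307 had 485, 282 and 457, as replicate 2 had 1 peak there and the others 2. The regions not found in all replicates were both in COX1: 6684 to 6742 had 124 and 109 reads in replicates 1 and 2 and no peak in replicate 3, and 6018 to 6032, of 15 nt, had 104 in replicate 1 alone. In all, 35.3% of the gene was covered by a peak in all 3 lists, and the first 114 nt held no peak in any.

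COX2, the subunit that takes electrons from cytochrome c, lies from 7586 to 8269 and held a single region. It ran from 7632 to 7824, with summed read numbers of 231, 174 and 217 and a highest peak of 153, 174 and 217. Replicate 1 divided it into 2 touching peaks, and replicates 2 and 3 had 1 peak each. The region began 46 nt into the gene, and the 445 nt beyond it, out of 684, held no peak in any list.

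COX3, the other core subunit of the oxidase, lies from 9207 to 9990 and held 2 regions, both in all 3 replicates. The first, from 9221 to 9418, began 14 nt after the 5' end and had highest read numbers of 198, 213 and 184. The second, from 9552 to 9673, had 148, 198 and 176. By the highest peak both were highest in replicate 2, and their ranges over the replicates overlapped. Summed over its peaks, the first region had 198, 213 and 291, and replicate 3, which divided it into 2 touching peaks, was then the highest. The last 317 nt of COX3 held no peak in any list, so COX2 and COX3 both lacked called peaks over their 3' parts.

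ATP8, the short accessory subunit of ATP synthase, lies from 8366 to 8572 and spans 207 nt. It held 1 peak in each list, with read numbers of 177, 237 and 290. Replicate 1 was the lowest and replicate 3 the highest, and the value of replicate 3 was above that of every peak of COX2, COX3, ATP6 and CYTB. The edges were close between lists: the peak started at 8384, 8384 and 8385 and ended at 8491, 8494 and 8490. It covered 52.3% ± 1.22 of the gene (SD, n = 3). It stopped before the 46 nt that ATP8 shares with ATP6, from 8527 to 8572, and those shared bases held no peak under either gene.

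ATP6, the subunit that forms the proton channel of ATP synthase with the rotating ring, lies from 8527 to 9207 and held 2 regions in all 3 replicates. The one from 8611 to 8670 had read numbers of 105, 87 and 103. The one from 8895 to 9115 consisted of 2 touching peaks in every list, with highest read numbers of 167, 186 and 209. By read number the highest peak of the 3' region was above the 5' peak in each replicate, and the ranges did not overlap. The 5' peak was narrower, at 60, 36 and 54 nt in replicates 1, 2 and 3, against 103, 113 and 116 nt. Per nt of the peak itself the order was reversed: the 5' peak was higher in each replicate, with overlapping ranges. Between the regions, 224 nt held no peak in any list. Summed over the gene, read numbers were 437, 447 and 485, or 12.1% ± 0.195 of the 6 messenger RNAs (SD, n = 3).

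CYTB, the subunit of complex III that carries both quinone sites, lies from 14747 to 15887. It held 3 regions in all 3 replicates, in a short 5' stretch and a longer 3' stretch. The 5' region, from 14776 to 14837, was the lowest of the 12, with read numbers of 63, 61 and 59, and its peak started at the same base in all 3 lists. The region from 15352 to 15567 had highest read numbers of 196, 207 and 225, and that from 15568 to 15693, which touches it, had 153, 185 and 131. Between the 5' region and the others, 514 of its 1141 nt had no peak in any list, the longest such stretch in the 6 genes.

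**Figure D1:**
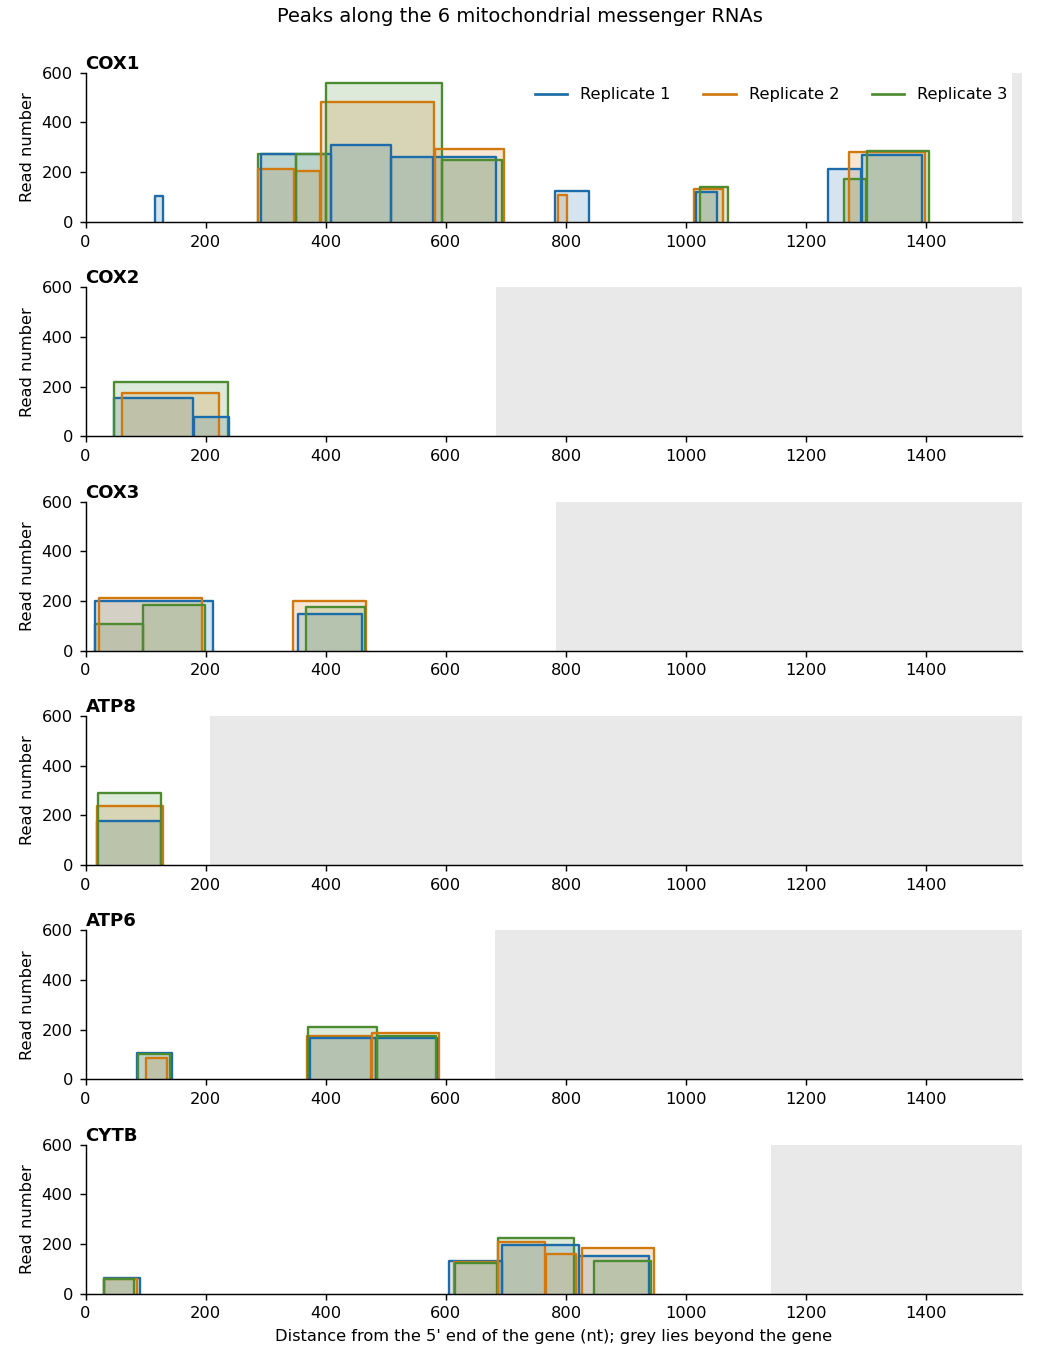
Peaks of the 6 messenger RNAs, with distance from the 5' end of the gene in nt on the horizontal axis and read number on the vertical axis; each outlined block is 1 peak of 1 replicate, and grey lies beyond the end of the gene. COX1 carries the highest block at 558 in replicate 3, COX2 and COX3 are empty over their last 445 and 317 nt, and CYTB has a gap of 514 nt.

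Place was also compared at a finer scale within the shared regions. Each deposited line marks a stretch of up to 4 nt inside its peak, whose meaning is not given in the sources used here. For the highest peak of each list in the 12 shared regions, the start of this stretch differed between replicates by a median of 8 nt, and by 10 nt or less in 7 regions. These regions had been chosen for overlap in all 3 lists, so some closeness is built in. The same distance is not given here for other regions, so it is not known to be particular to these genes. ATP8 and COX1 from 7140 to 7307 were among the closest, with ranges of 2 and 3 nt, and the stretch of ATP8 started at 8429, 8431 and 8430. The widest range, 123 nt, was in ATP6 from 8895 to 9115, where replicate 3 had its highest peak in the 5' one of the touching pair and replicates 1 and 2 in the 3' one.

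**Figure D2:**
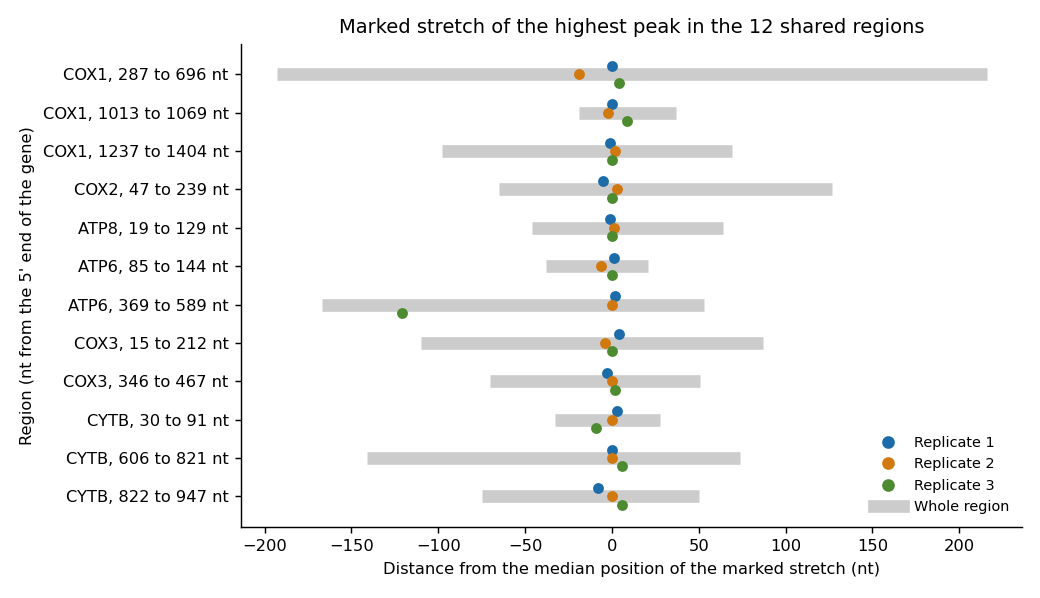
Position of the marked stretch of the highest peak in each of the 12 regions found in all 3 replicates, as distance in nt from the median of the 3 replicates; points are replicates, and grey bars show the extent of the region. The points lie within 10 nt in 7 regions, and the outlying point is replicate 3 in ATP6, 369 to 589 nt from the 5' end.

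Levels of the genes were compared per length, as summed read number per kb of gene. COX1 had 1257, 1113 and 1269 per kb (mean 1213 ± 86.7) and ATP8 855, 1145 and 1401 (1134 ± 273, SD, n = 3). These 2 were not ordered alike in the replicates: COX1 was higher in 1 of 3, and the mean difference per kb was 79.7 ± 284. ATP6 followed with 642, 656 and 712 (670.1 ± 37.2), CYTB with 477, 650.3 and 471 (533 ± 102), and COX3 with 441, 524 and 596 (520.4 ± 77.2). COX2 was the lowest, with 338, 254 and 317 (303 ± 43.4).

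Neighbours in this order were compared by an exact two-sided sign-flip permutation test over the 3 replicates, which cannot give a p below 0.25, so none of the 5 differences could pass a threshold. COX1 against ATP8 gave an exact p of 1. ATP8 was above ATP6 by 464 ± 239 per kb in 3 of 3 replicates, and COX3 above COX2 by 217 ± 98.5 in 3 of 3, each with an exact p of 0.25 (adjusted 0.417, Benjamini-Hochberg over 5), and in both pairs the ranges over replicates were apart. ATP8 and ATP6 lie on the same transcript, so their difference is between parts of it. ATP6 was above CYTB by 138 ± 120 per kb in 3 of 3 (exact p = 0.25, adjusted 0.417), with overlapping ranges. CYTB and COX3 differed by 12.2 ± 127 (exact p = 0.75, adjusted 0.938), less than their spread.

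The order changed with the treatment of touching peaks, which may hold the same reads. Of the peaks of these genes, 8, 6 and 7 pairs touched in replicates 1, 2 and 3. When a run of touching peaks counted only at its highest peak, ATP8, a single peak, kept 1134 ± 273 per kb and COX1 had 631 ± 26.8, so that ATP8 was above COX1 by 503 ± 254 in 3 of 3 replicates (exact two-sided sign-flip permutation p = 0.25). COX3 then had 475 ± 43.6, ATP6 419 ± 33.5, CYTB 329 ± 90.1 and COX2 265 ± 47.7. The value of CYTB rests partly on where its peaks were cut. Its 3' regions touched in replicate 1, where they counted once, and did not touch in replicates 2 and 3. Its read numbers were then 259, 453 and 415. By the highest peak alone, ATP8 had 3.93 ± 0.31 times the read number per kb of COX1 (SD, n = 3). That measure divides a single peak by the length of the whole gene, 1542 nt for COX1 and 207 nt for ATP8, which favours a short gene. Before division by length, the highest peak of COX1 had 450.0 ± 128 reads and that of ATP8 235 ± 56.5. Per nt of the peak itself, the highest peak of COX1 had 3.09, 2.54 and 2.89 reads in replicates 1, 2 and 3. The peak of ATP8 had 1.64, 2.14 and 2.74, lower in each replicate. COX2 was the lowest by both sums, and CYTB was the lowest by the highest peak alone, at 183 ± 12.8 per kb.

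**Figure D3:**
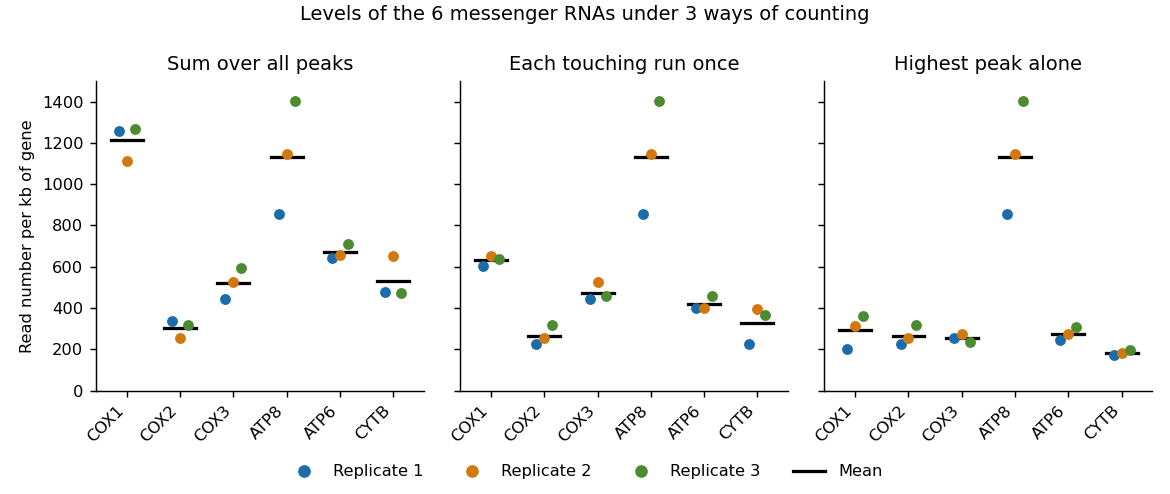
Read number per kb of gene for the 6 messenger RNAs, with all peaks summed, with only the highest peak of a touching run, and for the highest peak alone; points are replicates and bars their means. COX1 lies beside ATP8 in the first panel and below it in the others, at 1213, 631 and 292 per kb against 1134. The last panel divides a single peak by the length of the whole gene, which favours the shorter ATP8.

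The 7 messenger RNAs of complex I, which make up the rest of the mitochondrial coding set, also had 59 peaks over the 3 lists, and each held a region in all 3 replicates. The 6 messenger RNAs had 0.970, 0.965 and 0.890 times the summed read number of complex I, and 49.1%, 48.9% and 46.9% of the mitochondrial read numbers outside ribosomal RNA. In the order per kb, ND6, the complex I gene read from the opposite strand, was the nearest above COX1, with 3411, 2819 and 2990 (3074 ± 305). ND4, another complex I gene, was the nearest complex I gene below it, with 658, 776 and 917 (784 ± 130, SD, n = 3). These places also changed with the treatment of touching peaks: with a touching run counted only at its highest peak, ND6 had 1784 ± 225 per kb and ND4 650.5 ± 119, a mean above the 631 ± 26.8 of COX1 by less than its SD. By the highest peak alone, ND4L, a short complex I gene, and ND4 had means of 437 and 295 per kb, and COX1 had 292. Of 22 mitochondrial transfer RNA genes, 2 had a peak in any list, too few for a share, and 1 of these held a region in all 3 replicates.

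**Figure D4:**
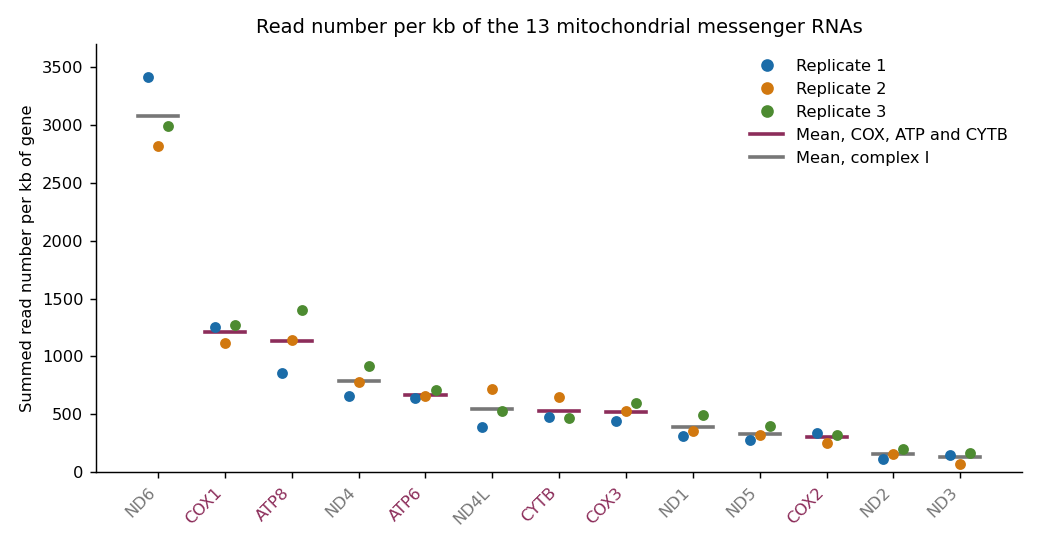
Summed read number per kb of gene for all 13 mitochondrial protein-coding genes, in the order of the means; points are replicates, bars are means, and colour tells COX, ATP and CYTB from complex I. ND6 stands highest at 3074 per kb, COX1 and ATP8 follow at 1213 and 1134, and the others of the 6 genes are interleaved with complex I below that.

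Nuclear DNA holds pseudogene copies of mitochondrial genes, and reads of near-identical copies can be split between them, so values of the 6 genes are uncertain to that extent. The RefSeq table listed 219 nuclear pseudogenes of these genes by name, of which 4 had a peak in any list and 1 in all 3. That one was MTATP6P1, a copy of ATP6 on chromosome 1 from 633696 to 634376, with the same interval length of 681 nt. Its plus-strand peak had read numbers of 51, 62 and 46, and a minus-strand peak over nearly the same bases, listed under another gene ID, had 58, 51 and 35. The plus-strand peak lay 246 to 393 nt from the start of the copy. In ATP6 the bases from 145 to 368 nt held no peak, so the peak of the copy fell mostly at distances where the mitochondrial gene had none. The 2 sequences were not aligned here. Adding the plus-strand read numbers of the copy to ATP6 raised it from 670.1 to 748 per kb, and it stayed between ATP8 and CYTB. The copies of the other genes with a peak, MTCO1P12, MTCO3P12 and MTCYBP18, had read numbers of 3 or 4 in 1 list each.

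**Figure D5:**
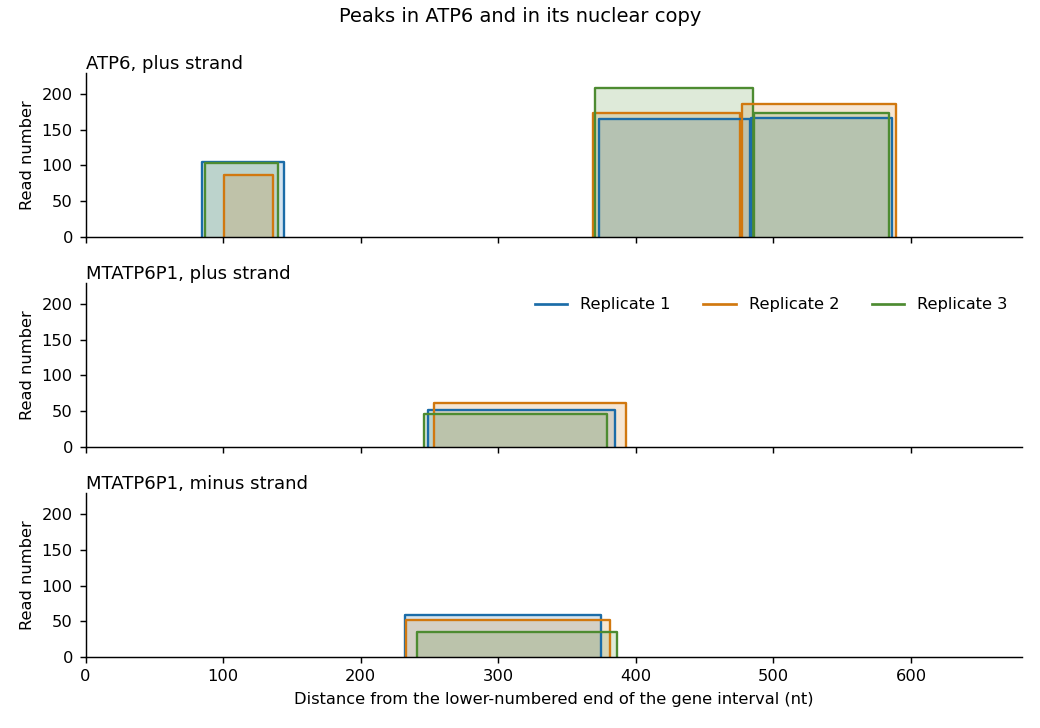
Peaks in ATP6 and, on both strands, in its nuclear copy MTATP6P1, with distance from the lower-numbered end of each interval in nt and read number as height; colours are replicates. The peaks of the copy, at 35 to 62, lie largely over the 224 nt of ATP6 that hold no peak.

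Respiratory complexes III, IV and V also contain subunits encoded in the nucleus, and peaks in their messenger RNAs had lower read numbers. Of 9 nuclear genes of complex III, 15 of complex IV and 19 of complex V, 5, 3 and 11 had a peak in any list, and 1, 1 and 5 held a region in all 3 replicates. The lists named 6583 gene IDs with a peak, and the RefSeq table held 59792 genes, expressed or not. No share over expressed genes was computed, so the counts with a peak are not read as many or few. The background of 22.2% is over gene IDs with a peak. It is to be set against the 19 of these nuclear genes with a peak, of which 7 held a region in all 3 replicates. For complex III this was UQCRH, the hinge subunit, with highest read numbers of 4, 10 and 9. For complex IV it was COX7C, with 21, 18 and 13. For complex V the 4 highest were ATP5F1B, the catalytic beta subunit, with 9, 10 and 9, ATP5MC3, a ring subunit, with 9, 9 and 6, ATP5F1A, the alpha subunit, with 7, 6 and 8, and ATP5IF1, the inhibitor, with 5, 4 and 4. ATP5PD and DMAC2L of complex V, whose gene IDs lay in a second protein-coding gene as well, were counted as without a peak and without a region. The 11 genes of complex V with a peak, and the 19 in all, therefore leave them out. The lowest peak of the 6 mitochondrial messenger RNAs, 59 in CYTB, was above each of these values. A nuclear and a mitochondrial messenger RNA differ in abundance and length, which were not measured or matched here.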

How the data were processed

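The authors deposited 1 peak list per replicate without a header, with a p-value per peak that is under 0.05 in every deposited line, with no adjustment stated. Peaks were called per sample. Per the submitters' processing notes, coordinates are on hg38 and the tools include bedtools and deepTools. How reads were aligned, which program called peaks and whether molecular identifiers were collapsed is not given in the sources used here. Lines of one interval and strand were counted once, which removed 577, 574 and 711 lines, none on chrM. The 17 mitochondrial gene IDs were tied to RefSeq genes (GRCh38.p14) that held at least 90% of their peak centres. Depth is known only as read numbers in peaks, so no counting interval is given. The merging into regions was checked on simulated peaks that did not touch, so regions cut into touching peaks at different places were not covered by that check. The planned letters and motifs of the regions were not analysed here, as no mitochondrial sequence was used. The genes and lists were chosen with earlier results of these data known. Genes named outside the 6 were the complex I genes next to the highest of the 6 per kb, nuclear genes with a region in all 3 replicates (at most 4 per list), and copies with a peak in all 3 lists; MTCO1P12, MTCO3P12, MTCYBP18, ATP5PD, DMAC2L and ND4L were named after their values were seen. The alternatives were other overlaps, stricter lists, other denominators, other treatments of touching peaks, gene by position, and each replicate left out. Python 3.11.15, pandas 2.3.3 and numpy 2.4.6 were used.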

Additional observations from a re-analysis of the deposited data

How the results depend on the processing

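The number of shared regions was 12 with the stricter 50% of each list by p. It was also 12 with a read number of 10 or more, which every peak of these genes passes. Requiring 50% overlap of both peaks gave 16, since a stricter rule can add regions only by dividing them. A peak from 2 or more replicates gave 13. With each replicate left out, 12 to 13 regions held a peak of both remaining lists, an easier condition than all 3. Most of these settings could therefore hardly lower the number. The share of the 6 messenger RNAs in all read numbers stayed within the spread between replicates, with 1.38% to 1.59% as each replicate was left out, except that it was 48.3% when mitochondrial peaks outside ribosomal RNA were the whole, which is a different denominator. The overlap between replicates was 83.3% with 50% of both peaks required, and 95.2% to 97.6% with each replicate left out. The difference of COX1 minus ATP8 per kb was -503 when a touching run counted only at its highest peak and -842 by the highest peak alone, and ran from -81.6 without replicate 1 to 185 without replicate 3. The value of -842 comes from dividing a single peak by the length of the whole gene, which favours the shorter ATP8. The level per kb of 3 of the 6 genes moved by more than 1 SD with touching runs counted once, and of 4 by the highest peak alone. Taking the gene from position and strand changed no value. It could hardly do so, because the gene IDs had been tied to genes by the same intervals. Adding the nuclear copy to ATP6 was chosen after the data were seen. No paired analysis was possible because there was 1 group, so no groups could be paired by replicate number; genes were compared within replicates. A stretch without a called peak may still hold reads, since reads outside peaks were not analysed here.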
